A study of Mus musculus with 4 samples.

Results

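This report describes the Pax7-bound sites around Met, Gab1, Cxcr4 and Lbx1, 4 genes known for their work in muscle precursors that leave the somite and migrate. A site was taken when the summit of its Pax7 peak lay between 100 kb before the start and 100 kb after the end of 1 of these genes, and 22 of the 20579 deposited peaks met this rule. They divided into 10 at Gab1, 7 at Met, 3 at Cxcr4 and 2 at Lbx1, and no peak belonged to more than 1 gene. The measurement was Pax7 ChIP-seq in iPax7 cells, muscle progenitors derived from A2lox-cre mouse ESCs that carry 1 copy of a Dox-inducible Pax7 cDNA next to Hprt. The cells received 1 µg/ml Dox from day 3 of differentiation in serum, were sorted as PDGFRα+FLK1- on day 5, and were harvested on day 9 after 6 days of Dox. There were 2 libraries immunoprecipitated with an anti-Pax7 antibody and 2 input libraries, all from Dox-treated cells, so the groups share the transgene and the drug and differ only in the immunoprecipitation. The cells were differentiated from an ESC line with a forced Pax7 source, and they are not embryonic limb precursors. Expression was not analysed here, so whether these cells express Met, Gab1, Cxcr4 or Lbx1 cannot be checked from these data.

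In the embryo, precursors of limb, tongue and diaphragm muscle detach from the lateral edge of the dermomyotome and travel to the place where they differentiate. Detachment needs Met, the receptor tyrosine kinase that binds hepatocyte growth factor (HGF), and Gab1, the docking protein through which active Met recruits its effectors. Lbx1, a homeobox transcription factor, marks the migrating cells and is needed for their correct routes, and Cxcr4, the receptor for the chemokine Cxcl12, contributes to their migration and survival. Pax3, the paralog of Pax7, acts upstream of Met in these cells. Pax proteins of this class bind DNA through a paired domain and a homeodomain.

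The sequences at the summits are given first, because they differ in which letters of these 2 domains they carry. All are read from the plus strand of NCBIM37 (mm9). In the first list capitals mark a match to a Pax motif, searched within 50 bp of a summit on both strands. Matches to the other motifs searched are left in lower case there. The paired-box core is GTCACG, which reads CGTGAC on the other strand, and the paired plus homeobox motif is ATTAGTCAC or ATTAGTCAT. These are the 5 peaks with such a match:
Met, intron 5, chr6:17478906-17478966, paired-box core: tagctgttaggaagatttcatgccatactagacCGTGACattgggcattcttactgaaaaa
Met, 46.9 kb upstream, chr6:17366844-17366904, paired-box core: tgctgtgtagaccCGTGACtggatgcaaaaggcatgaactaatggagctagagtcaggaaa
Gab1 window, in Smarca5, chr8:83262273-83262333, paired-box core: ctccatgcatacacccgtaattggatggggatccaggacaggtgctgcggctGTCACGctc
Gab1, intron 1, chr8:83377659-83377719, paired plus homeobox: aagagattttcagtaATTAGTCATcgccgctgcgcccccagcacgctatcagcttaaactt
Gab1, intron 1, chr8:83335000-83335100, paired plus homeobox on the minus strand: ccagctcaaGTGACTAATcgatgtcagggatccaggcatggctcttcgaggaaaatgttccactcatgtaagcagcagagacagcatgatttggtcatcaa

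The strongest peak of the 4 windows, in intron 1 of Gab1, held neither motif. It is shown over 101 bases with its 2 E-boxes in capitals, the E-box CANNTG being the hexamer bound by MyoD-type factors. Toward its right end the letters attagtc are followed by t, where the paired plus homeobox motif continues with AC or AT. The strongest peak of Cxcr4, in coding sequence, and that of Lbx1, between genes, are the other 2 summits that lead their gene without a Pax match:
Gab1, intron 1, chr8:83390578-83390678, E-boxes: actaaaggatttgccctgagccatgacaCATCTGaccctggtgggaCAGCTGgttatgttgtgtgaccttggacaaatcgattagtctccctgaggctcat
Cxcr4, exon 2, chr1:130486260-130486320: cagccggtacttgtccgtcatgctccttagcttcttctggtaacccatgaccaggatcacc
Lbx1, 66.6 kb upstream, chr19:45376828-45376888: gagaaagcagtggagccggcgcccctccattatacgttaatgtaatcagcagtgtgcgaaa

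The authors called peaks on merged replicates against merged inputs, so a peak has 1 value and no spread between replicates, and no test between samples was possible. Fold enrichment is the authors' ratio of ChIP to local background at the summit. The number of Pax7 ChIP reads covering each summit was solved from the fold enrichment and the p-value of the peak. Only whole numbers of reads were tried, with a scale factor fitted to the list. For all 20579 peaks the best number met the deposited −log10 p within 0.001. The second best number missed it by a median of 0.366. Intervals below are exact 95% Poisson intervals of these reads carried over to the fold enrichment, with the background taken as fixed, and they cover counting error only. Over the whole list the median summit had 35 reads and a fold enrichment of 5.22, and reads ran from 17 to 255.

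Met showed 7 Pax7 peaks, 4 inside the gene and 3 upstream, and the 2 strongest lay in its introns. The gene (ENSMUSG00000009376.8) runs on the plus strand of chromosome 6 from 17413800 to 17523980, a length of 110.181 kb. All 7 summits had Met as their nearest protein-coding TSS, and none lay downstream of the gene. Distances below are from the annotated start of the gene. Coding transcripts of Met also start inside it. For the summits in introns 3, 5 and 18 the nearest such start was 18.7, 6.1 and 15.7 kb away. Of all protein-coding genes, 7.58% had at least 7 peaks by the same rule, and 15.0% had a peak of at least 10-fold, of which Met had 2.

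The peak in intron 5 of 20 (17478725 to 17479109), 65.1 kb downstream of the TSS, had 83 reads over a background of 5.00 reads. Its fold enrichment was 13.4 (95% interval 10.7 to 16.6), above that of 98.1% of all Pax7 peaks, with a −log10 q of 60.4. It was the Met peak with the paired-box core closest to its summit, 5.5 bp away, as the first sequence printed shows. In intron 3, the peak from 17466163 to 17466504 had 70 reads and 11.8-fold enrichment (9.27 to 14.9), above 96.5% of peaks. Its summit held the E-box CAGCTG and the AP-1 site TGAATCA, but none of the Pax motifs. The intervals of these 2 intronic peaks overlapped, so their order was not resolved at this depth.

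The other 5 Met peaks were weaker, and their intervals did not reach 10. The farthest upstream, at 60.5 kb (17353003 to 17353426), had 63 reads and 7.24-fold enrichment (5.59 to 9.23). The intergenic peak 46.9 kb upstream, from 17366770 to 17366964, had 35 reads and 4.94-fold enrichment (3.48 to 6.81), and its paired-box core lay 14.5 bp from the summit. Both of these peaks were between genes, and only the nearer one carried a Pax motif. In intron 1, 15.3 kb downstream of the TSS, the peak from 17428932 to 17429236 had 56 reads but only 4.97-fold enrichment (3.78 to 6.43), with a local background of 10.0 reads, the highest of the 22 members. By reads it exceeded 84.9% of all peaks and by fold enrichment 44.8%, so its rank rests on which of these is used. The peak in intron 18, 98.9 kb downstream of the TSS (17512531 to 17512767), had 41 reads and 5.76-fold enrichment (4.17 to 7.76).

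The peak nearest to the Met promoter had the lowest fold enrichment of the 7. It lay 2163 bp upstream of the TSS, from 17411326 to 17411793, with 28 reads and 3.98-fold enrichment (2.69 to 5.69). Its interval excluded the values of both strong intronic peaks but overlapped the intervals of the other Met peaks, so its place among those was not resolved. It had an E-box and no Pax motif within 50 bp of the summit.

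Gab1 had the most peaks of the 4 genes and the strongest. The gene (ENSMUSG00000031714.8) lies on chromosome 8 and is read on the minus strand, from 83404378 down to 83288333, over 116.046 kb. Of its 10 peaks 7 were inside the gene, 6 of these in the long intron 1. Only 2.03% of protein-coding genes had at least 10 peaks within 100 kb. The window also contains Smarca5, Frem3 and Gm4891, and 5 of the 10 summits had Gab1 as their nearest protein-coding TSS.

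The strongest peak lay 13.8 kb into intron 1, from 83390301 to 83390826, and was also the widest of the members, at 526 bp. It had 136 reads over a background of 5.00 reads, which gave 21.9-fold enrichment (18.4 to 25.9) and a −log10 q of 126. In the list of 20579 it was number 17 by fold enrichment and number 52 by reads. Its interval lay above those of all 21 other members. Its nearest E-box, CAGCTG, was centred 1.5 bp from the summit, and CATCTG was 19.5 bp away.

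A further 5 peaks lay in intron 1, and they ran from 3.29-fold to 11.3-fold. The peak 47.7 kb downstream of the TSS, from 83356534 to 83356828, had 64 reads and 11.3-fold enrichment (8.74 to 14.4), with the AP-1 site TGATTCA 41.0 bp from its summit. At 69.3 kb the peak from 83334898 to 83335185 had 54 reads and 8.83-fold enrichment (6.67 to 11.5), and ATTAGTCAC lay 37.0 bp from the summit, overlapping an E-box. A weaker peak 26.7 kb from the TSS (83377637 to 83377842) had 36 reads and 4.44-fold enrichment (3.15 to 6.10), with ATTAGTCAT 11.0 bp from the summit. Thus the 2 peaks with the longer Pax motif were neither the strongest nor the weakest of the intron. The remaining pair, from 83332056 to 83332235 and from 83381131 to 83381333, had 4.01-fold (2.65 to 5.85) and 3.29-fold (2.14 to 4.87) enrichment. The last value, from 23 reads, was the lowest of the 22 members and exceeded only 4.02% of all peaks.

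Outside intron 1, Gab1 had a peak in intron 3 of 9, from 83313748 to 83314034, with 58 reads and 9.10-fold enrichment (6.95 to 11.7). A pair of intergenic peaks lay upstream. That at 32.7 kb (83437033 to 83437395) had 32 reads and 5.76-fold enrichment (3.99 to 8.05), and that at 93.0 kb (83497275 to 83497487) had 27 reads and 4.45-fold enrichment (2.99 to 6.39). Both were nearer to the TSS of Gm4891 than to that of Gab1. The only peak beyond the end of the gene, from 83262176 to 83262475, had 59 reads and 10.5-fold enrichment (8.01 to 13.4), and its paired-box core was 24.5 bp from the summit. It lay in an intron of Smarca5, a chromatin remodelling ATPase, 1093 bp from the coding TSS of that gene and 142 kb from that of Gab1. Which gene, if any, this site acts on was not tested.

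Cxcr4 had 3 weak peaks, none of which reached 5-fold. The gene (ENSMUSG00000045382.6) is short, 4.095 kb on the minus strand of chromosome 1 from 130488870 to 130484776, and no other protein-coding gene falls in its window. At least 3 peaks were found for 43.1% of protein-coding genes, so this count was not far from the middle of the distribution. The peak in coding sequence of exon 2, from 130486216 to 130486389, had 31 reads and 4.33-fold enrichment (2.99 to 6.09). In the untranslated part of exon 1, the peak from 130488704 to 130488888 had 22 reads and 3.68-fold enrichment (2.37 to 5.49), with its summit 67 bp from an annotated TSS. An intergenic peak 14.1 kb upstream (130502931 to 130503142) had 37 reads over a background of 9 reads and 3.65-fold enrichment (2.60 to 4.99). The 3 intervals overlapped widely, and no order can be given among these sites.

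Lbx1 had 2 peaks, both between genes and far from the gene. It is encoded on the minus strand of chromosome 19, from 45310301 to 45307178 (ENSMUSG00000025216.8, 3.124 kb). At least 2 peaks were found for 58.9% of protein-coding genes. The upstream peak, 66.6 kb from the TSS (45376719 to 45377013), had 33 reads and 5.93-fold enrichment (4.14 to 8.25). The downstream peak, 58.6 kb from the TSS (45251639 to 45251825), had 39 reads over a higher background of 7 reads and 4.80-fold enrichment (3.45 to 6.51). The order by reads was thus opposite to that by fold enrichment, and the intervals overlapped. Neither had Lbx1 as its nearest protein-coding TSS. The nearest was that of Btrc, 61.4 kb away, for the upstream peak and that of Tlx1, 24.5 kb away, for the downstream peak.

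**Figure D1:**
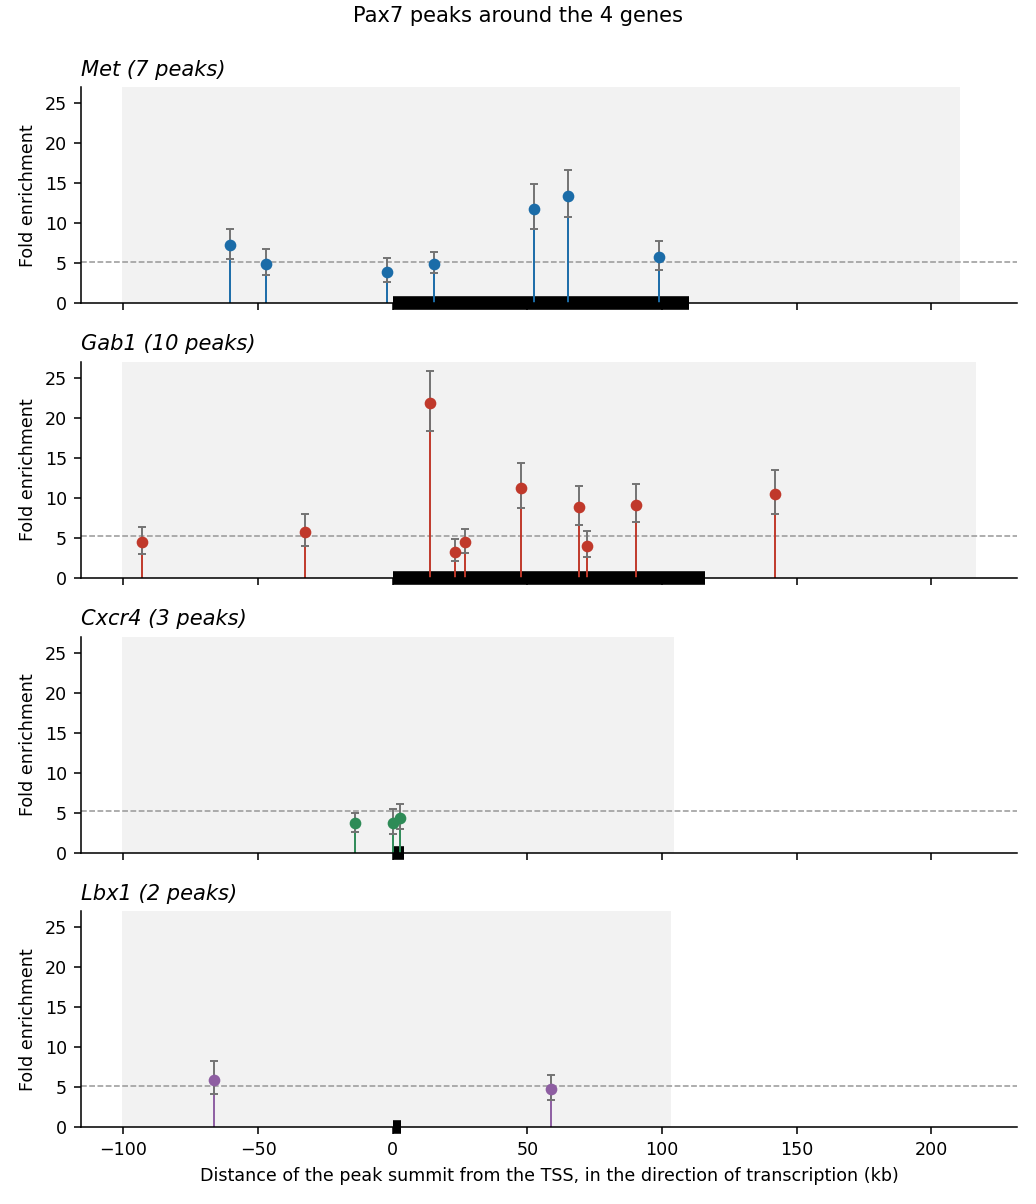
Pax7 peaks around the 4 genes. Each panel plots fold enrichment (vertical axis) against the distance in kb of the summit from the TSS in the direction of transcription (horizontal axis). Black bars are the genes, grey areas the 100 kb windows, error bars the 95% Poisson intervals, and the dashed line the median of all peaks, 5.22. Met and Gab1 have their highest points inside the gene, at 13.4-fold and 21.9-fold, and no Cxcr4 point reaches the line.

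As a group the 22 sites spanned the range of the list, and their centre was near that of all peaks. Fold enrichment ran from 3.29 to 21.9, with a median of 5.36 beside 5.22 for all peaks. The 95% interval of the members' median, from order statistics, was 4.33 to 9.10. It takes the 22 peaks as independent, although they are all the peaks of 4 windows. At 5-fold or more there were 11 of 22 members, beside 54.9% of all peaks. At 10-fold or more there were 5 of 22, all in the Met and Gab1 windows, beside 6.99% of all peaks. The upper quartile was 9.03 for the members and 6.74 for all peaks, whereas the lower quartiles were 4.36 and 4.32. The median number of reads at the summit was 38, against 35 in all.

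**Figure D2:**
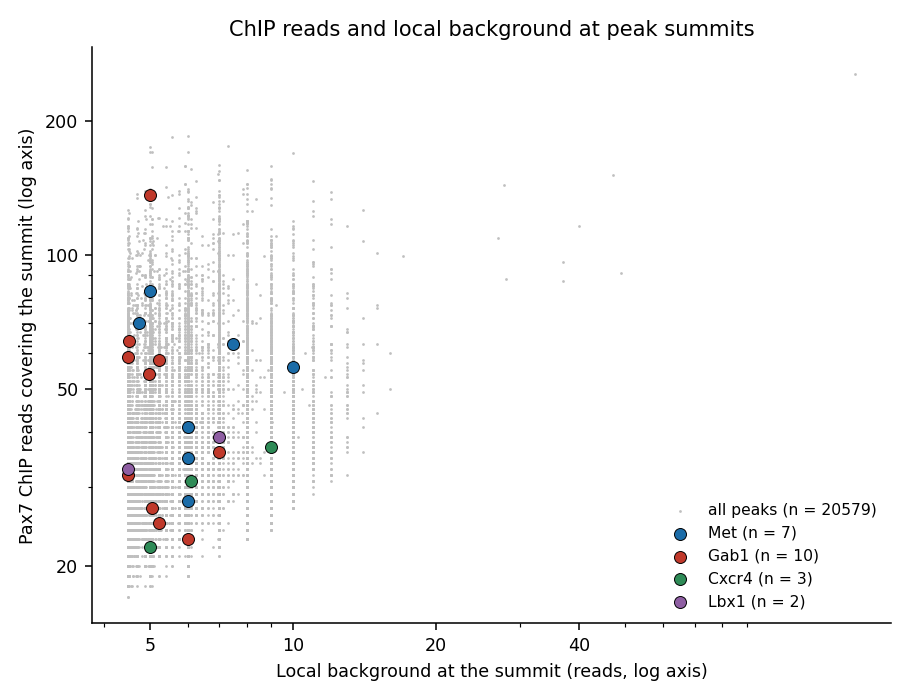
Pax7 ChIP reads covering the summit (vertical axis, log scale) against the local background in reads (horizontal axis, log scale) for all 20579 peaks in grey and the 22 members in colour. The Gab1 peak with 136 reads stands highest among the members, and the Met peak with a background of 10.0 reads lies farthest to the right.

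The 4 windows together held 21.3 peaks per Mb of their 1033.446 kb, against 8.05 per Mb over the sequenced genome and a median of 9.16 per Mb over the windows of all 22350 protein-coding genes. Every 1 of the 4 genes had a peak, as had 75.2% of protein-coding genes. Window length differs with gene length, and per Mb of window the order of the genes was unchanged, with 31.6 peaks per Mb at Gab1, 22.6 at Met, 14.7 at Cxcr4 and 9.85 at Lbx1. By this density Gab1 exceeded 96.1% of protein-coding genes, Met 87.1%, Cxcr4 71.0% and Lbx1 56.5%. By the fold enrichment of the strongest peak, Gab1 exceeded 99.8%, Met 95.7%, Lbx1 50.3% and Cxcr4 30.7% of genes. Gab1 and Met, the docking protein and its receptor, thus came before Cxcr4 and Lbx1 in number, density and strongest peak. This order was seen in the values and was not tested, and it rests on the 100 kb windows, the only width at which density was computed. With 250 kb, Met, Gab1 and Cxcr4 each had 12 peaks and Lbx1 had 10, and the added peaks reached 11.3-fold near Cxcr4 and 12-fold near Lbx1. Cxcr4 is the shortest of the genes with 12 peaks, so at that width its density was above those of Met and Gab1.

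**Figure D3:**
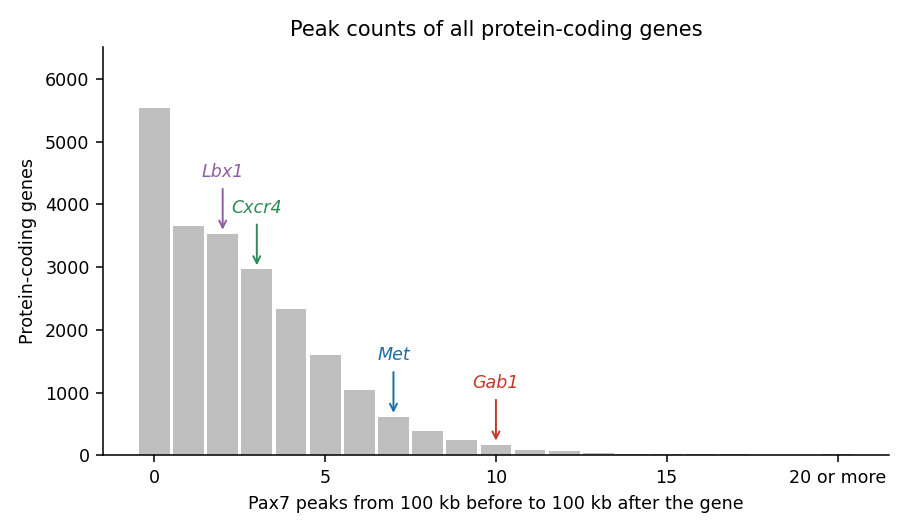
Number of protein-coding genes (vertical axis) by their number of Pax7 peaks from 100 kb before to 100 kb after the gene (horizontal axis). Arrows mark Lbx1 at 2 peaks, Cxcr4 at 3, Met at 7 and Gab1 at 10, and the median of all 22350 genes is 2.

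Most members were distal. The annotation placed 12 of the 22 summits in introns, 8 between genes and 2 in exons, where all peaks had 47.1%, 45.9% and 7.03%. Within 1 kb of a TSS of any annotated transcript there was 1 member, the Cxcr4 exon 1 peak, beside 16.3% of all peaks. Within 5 kb there were 4 of 22, beside 29.4% of all peaks. The gene itself contained 13 of the 22 summits, and the closest neighbours were 2.51 kb apart, so none of the sites shared a summit region.

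Pax motifs were found at 5 of the 22 summits (22.7%, exact 95% interval 7.82 to 45.4), beside 13.7% of all peaks. The paired-box core was within 50 bp of 3 summits (2.91% to 34.9%), 2 at Met and 1 in the Gab1 window, and of 11.1% of all peaks. The paired plus homeobox motif was at 2 summits, both in Gab1 intron 1 (1.12% to 29.2%), and at 2.10% of all peaks. The homeodomain dimer, TAAT and ATTA separated by 2 bases, was at none of the 22 (upper limit 15.4%) and at 0.831% of all peaks. In 44 flanking windows of the same size, 500 bp left and right of the member summits, none of these motifs occurred, and 1.72% of the flanks of all peaks had 1. With so few members the intervals are wide, and each contains the share of all peaks. They also take the peaks as independent, although the members come from only 4 windows. No match means only that these letters were absent from the window.

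E-boxes lay within 50 bp of 15 of the 22 summits (68.2%, 45.1 to 86.1), including all 3 Cxcr4 summits, and of 49.7% of all peaks. With 25 bp on either side it was 6 of 22, beside 28.5% of all peaks, and with 100 bp 16 of 22, beside 72.6%, so the members stood above all peaks at 50 bp and close to them at the other widths. The hexamer is short, and 19 of the 44 member flanks and 40.3% of all flanks also had it. Motifs of the other factors were rarer. Runx (TGTGGT), Tead (GGAATG) and AP-1 (TGANTCA) were each at 2 members, beside 9.73%, 11.0% and 6.82% of all peaks, and the control hexamer GCACTG was also at 2, beside 6.86%.

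**Figure D4:**
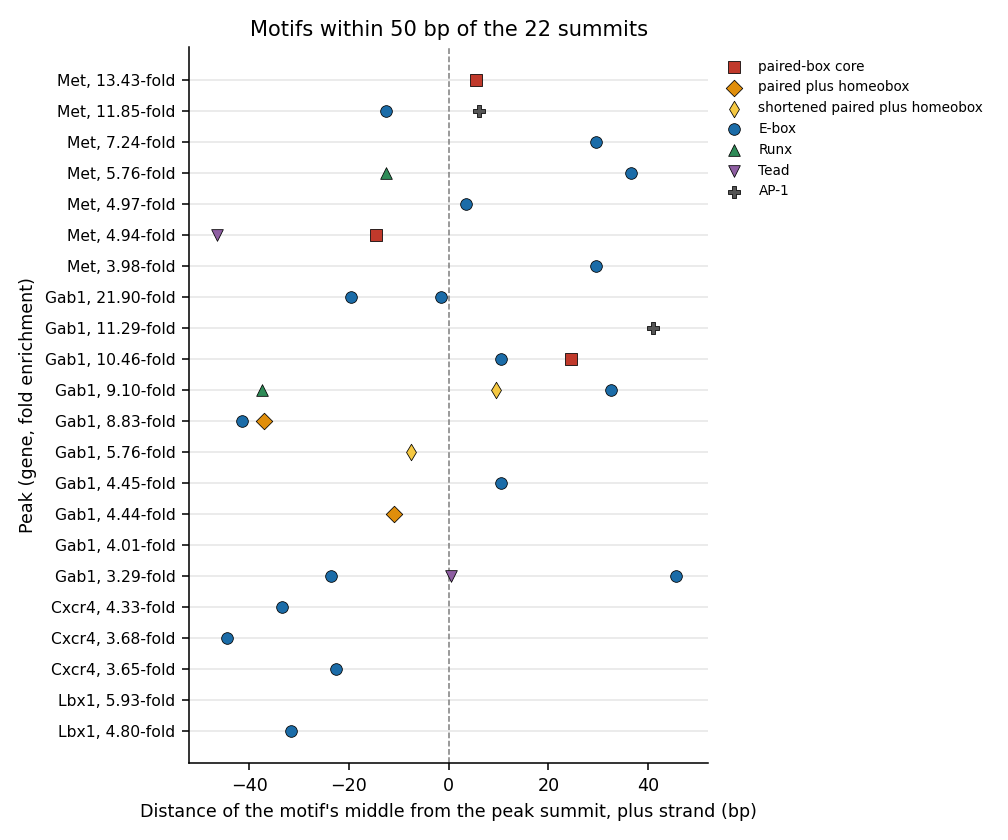
Motifs within 50 bp of the 22 summits. Each row is a peak, named by its gene and fold enrichment, and the horizontal axis is the distance in bp of the motif's middle from the summit on the plus strand. Squares and diamonds, the Pax motifs, occur in Met and Gab1 rows only, and thin diamonds mark the shortened motif of 8 letters.

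Once the sequences had been seen, a shortened form of the second motif was also counted, TTAGTCAC or TTAGTCAT, which drops the first A. It was at 4 of the 22 summits, all at Gab1, and at 4.31% of all peaks. Since it was read off these summits, nothing follows from that difference. Of these 4, 2 carry the full motif printed above. The other 2 are the 9.10-fold peak in intron 3 and the 5.76-fold peak 32.7 kb upstream, shown here because they share 15 consecutive bases, in capitals, that include TTAGTCAC:
Gab1, intron 3, chr8:83313838-83313898: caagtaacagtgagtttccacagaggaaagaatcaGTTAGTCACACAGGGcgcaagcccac
Gab1, 32.7 kb upstream, chr8:83437070-83437130: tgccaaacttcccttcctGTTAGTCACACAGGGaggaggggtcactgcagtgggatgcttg

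The run of 15 bases occurs 8 times in the mm9 genome, and 4 of these copies are inside a Pax7 peak, 2 of them the Gab1 peaks shown. Another run, of 11 bases, was shared by the strongest Gab1 peak and the 8.83-fold peak of the same intron, as atcgattagtc in the former and its reverse complement in the latter, where it covers most of the paired plus homeobox motif. Between genes, the longest shared run was of 12 bases, taatgtaatcag, in the strongest Lbx1 peak and the Met peak 60.5 kb upstream:
Lbx1, 66.6 kb upstream, chr19:45376828-45376888: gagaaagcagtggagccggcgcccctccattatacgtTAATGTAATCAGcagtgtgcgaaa
Met, 60.5 kb upstream, chr6:17353230-17353290: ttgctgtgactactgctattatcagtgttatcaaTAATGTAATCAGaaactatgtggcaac

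These runs were picked as the longest among the 22 windows of 101 bases, and how often runs of this length are shared between other peaks was not measured.

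The genes that act with Met, Gab1, Cxcr4 and Lbx1 in this process were counted by the same rule, as a list of 17 put together by role, with earlier results of these data known. Each of these 17 had at least 1 peak, beside 75.2% of protein-coding genes, with a median of 4 peaks beside 2 and a maximum of 11. These counts also depend on window length. Per Mb of window they ran from 3.38 at Pax3 to 34.8 at Eya2, beside a median of 9.16 for all protein-coding genes. A peak of at least 10-fold was found for 5 of them, beside 15.0% of protein-coding genes. Peaks were assigned to these genes by window only, and whether another gene's TSS was nearer was not examined. The strongest peak lay 106 kb from the TSS for Grb2 and 128 kb for Plcg1. Among the ligands, Hgf had 3 peaks, the strongest of 10.3-fold 83.0 kb upstream, and Cxcl12 had 1 of 7.50-fold. Ackr3, the second Cxcl12 receptor, had 6 peaks up to 10.4-fold, against 3 peaks up to 4.33-fold at Cxcr4.

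The adaptors and effectors downstream of Met and Gab1 had between 1 and 5 peaks each. Sos1, the guanine nucleotide exchange factor of Ras, had 5 up to 11.9-fold, and Pik3r1, the regulatory subunit of phosphoinositide 3-kinase, had 5 up to 8.25-fold. Grb2, which links Met and Gab1, had 4 up to 6.43-fold and Crk, another adaptor bound by Gab1, 4 up to 9.29-fold. Plcg1, a phospholipase, had 3 up to 8.11-fold, and Ptpn11, the phosphatase Shp2, had 1 of 5.35-fold. None of these 6 matched the 10 peaks or the 21.9-fold maximum of Gab1.

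Among the transcription factors and cofactors, Eya2 had 11 peaks, the only gene of the list above Gab1, with a strongest peak of 11.5-fold. Eya1 had 5 up to 10.5-fold, and Six4 had 6 up to 9.59-fold. Pax3, which acts upstream of Met and Lbx1, had a single peak, of 8.32-fold and 37.2 kb downstream of its TSS. Msx1 and Meox2 had 2 and 1 peaks, with maxima of 5.28-fold and 5.06-fold. Of the guidance genes, Efna5, an ephrin ligand with the longest window of the list, had 8 peaks up to 7.50-fold, and Epha4, its receptor, had 6 up to 8.89-fold.

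**Figure D5:**
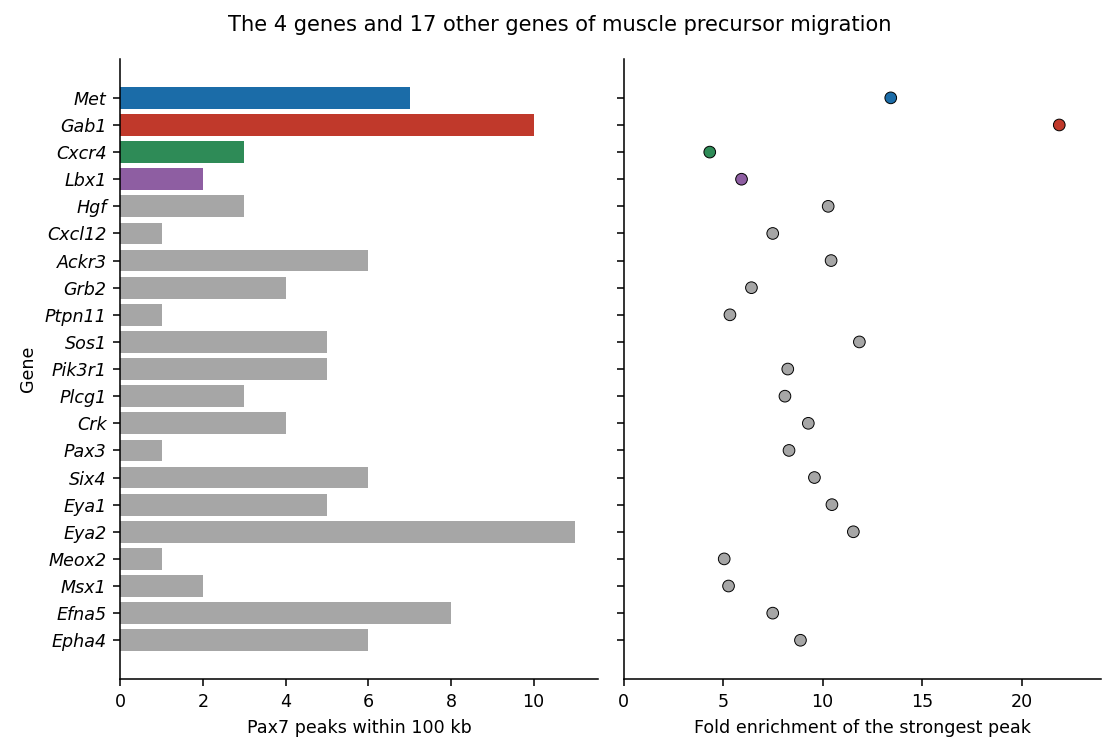
The 4 genes and 17 other genes of muscle precursor migration. Bars give the number of Pax7 peaks within 100 kb of the gene (left axis from 0) and points the fold enrichment of the strongest peak. Gab1 has the highest point at 21.9 and Met the next at 13.4, while Eya2 has the longest bar, 11 peaks.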

How the data were processed

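Peaks from 2 Pax7 ChIP and 2 input libraries of Dox-treated iPax7 cells were used. Per the study's methods, the authors mapped single-end reads to NCBIM37/mm9 with bowtie2, retained unique alignments, discarded PCR duplicates with Picard, and ran MACS2 on pooled replicates against pooled inputs, keeping peaks at q of 0.01 or less. For every peak the authors deposited a fold enrichment (a ratio of ChIP over local background at the summit), the −log10 p-value, the −log10 q-value, a score equal to 10 times the latter without its decimals, and the summit. Columns of values that could not be tied to the libraries numbered 0. The depth per library is not given in the list.

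Summits were placed on the NCBIM37 genome and GENCODE vM1, the build of the list, in 1-based coordinates. Reads at the summit were solved from the fold enrichment, taken as (0.95873 times reads + 1)/(background + 1), and from the Poisson tail, within 0.001 of the deposited −log10 p. The factor 0.95873 is not stated by the authors and was found from the list itself, as the value at which whole reads matched the deposited p-values of the largest share of peaks, here all of them. The lowest background was 4.504. The recovery and motif steps were tested on simulated data. No comparison was tested, because 1 pooled list has no replicates. The genes, the motifs and the list of 17 other genes were chosen with earlier results of these data known, and 1 further gene of that list is not reported here. All peaks of the 4 genes are named, up to 10 per gene, and other genes only as neighbours or list members. Sequences are the 61 bases around the strongest summits and those with Pax motifs, over a wider stretch where a motif lay farther out, and those with shared runs were added after they were seen. Alternatives were windows of 50 and 250 kb, a −log10 q or fold enrichment of at least 5, any overlap of at least 1 bp, merging within 500 bp, each gene left out, 25 and 100 bp for motifs, and 5 kb or protein-coding TSSs. The software was matplotlib 3.10.9, scipy 1.17.1, pandas 2.3.3 and numpy 2.4.6 under Python 3.11.15. Other assays were not analysed here.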

Additional observations from a re-analysis of the deposited data

How the results depend on the processing

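Of 37 alternatives, 25 left a count of peaks within 1.5 times or another value within its own error, and 12 did not. With windows of 250 kb the total rose from 22 to 46 peaks, Met to 12, Cxcr4 to 12 and Lbx1 to 10, while Gab1 had 12. With 50 kb the total was 18, Lbx1 had 0, and 62.1% of protein-coding genes had a peak. With a fold enrichment of at least 5, 11 peaks were left, 4 at Met, 6 at Gab1, 0 at Cxcr4 and 1 at Lbx1, and 61.3% of protein-coding genes had a peak. So the lead of Gab1 and Met over Cxcr4 and Lbx1 in number of peaks held at 50 kb and at 5-fold and was absent at 250 kb. That lead is one of counts, and the windows of Gab1 and Met are longer because the genes are. At 50 kb Met had 6 peaks and Cxcr4 3, with genes of 110.181 kb and 4.095 kb, so a lead in density does not follow. The median fold enrichment stayed between 4.80, without Met, and 5.76, and the share with the paired-box core between 9.09% and 18.2%. The share within 1 kb of a TSS, 4.55%, was 18.2% within 5 kb, inside the wide interval of so few peaks. Chosen after seeing the data, the median number of reads without Gab1 was also 38. No paired analysis was possible because the replicates were merged before peaks were called, and for the same reason no replicate could be left out. Sites with under 17 reads at the summit were not in the list, so a weak site cannot be told from none.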

Other observations

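Between 100 and 250 kb from the 4 genes there were a further 24 peaks, 9 near Cxcr4, 8 near Lbx1, 5 near Met and 2 near Gab1. Those near Cxcr4 ran from 3.63-fold to 11.3-fold (median 4.44), and those near Lbx1 from 3.70-fold to 12-fold (median 6.02). The strongest site on the Cxcr4 side lay between genes 109 kb downstream of the TSS, from 130379405 to 130379893 on chromosome 1, with 68 reads, and ranked above 95.7% of all peaks by fold enrichment. It was stronger than any of the 3 Cxcr4 peaks within 100 kb, whose highest value was 4.33. The strongest site on the Lbx1 side lay 153 kb upstream, in an intron of Btrc, a subunit of a ubiquitin ligase, from 45462969 to 45463474 on chromosome 19, also with 68 reads, above 96.7% of all peaks. Which gene either site acts on was not tested.

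Near Met, 3 peaks stood close together 112.6 to 115.6 kb upstream of the TSS, in an intron of the noncoding gene Gm15581, with 7.94-fold, 5.93-fold and 8.19-fold enrichment. The first of them, from 17300990 to 17301368 on chromosome 6, had 90 reads at the summit, more than any Met peak within 100 kb, and held the paired-box core. The nearest protein-coding TSS of all 3 was that of Cav1, 40.6 to 43.6 kb away. Which gene these sites act on was not tested. Both peaks beyond the Gab1 window lay in introns of Usp38, a deubiquitinase, with 5.39-fold and 5.05-fold enrichment.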
